A study of Mus musculus with 36 samples.

Results

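The comparison described here sets mesenteric lymph nodes after weeks of lymphotoxin blockade against nodes after days of it. Late nodes came from mice given a soluble form of the lymphotoxin-beta receptor over 27 or 35 days, and early nodes from mice given it for 1, 2 or 3 days. RNA of each node was measured on 2 Affymetrix oligonucleotide arrays with different probe sets, called array A and array B. Each day had 3 samples on each array, so the comparison used 12 late and 18 early measurements, 30 of the 36 in the series. The other 6 were the nodes of mice given phosphate-buffered saline (PBS, day 0), which entered neither side and are given as a further level. The groups were taken from the sample titles. All late and early mice received the same agent, so by label only its duration differs. The labels give no strain, sex, age, dose or number of injections, and describe neither a later saline group nor a group given a control protein. They do not say whether the 3 samples of a day came from separate mice, and the p-values then reflect only how far these samples differ, which may be technical in part.

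Lymphotoxin is a membrane ligand of lymphocytes, and its receptor on stromal cells signals through the noncanonical NF-kB pathway. In the adult node this signal maintains follicular dendritic cells, which hold antigen in B cell follicles, and high endothelial venules, where blood lymphocytes cross into the node. A soluble receptor binds the ligand in place of the cell-bound receptor. Whether genes that respond within days stay displaced under weeks of blockade is the question the comparison of late with early nodes addresses.

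The array values were deposited intensities on a linear scale, analysed as log2 values. A change is the mean of the 2 late days minus the mean of the 3 early days in log2 units, with the standard error (SE) of a limma fit, and called at a Benjamini-Hochberg adjusted p under 0.05. Array medians over late and early nodes lay between 275.5 and 299.5 (array A) and between 149.8 and 165.2 (array B). Among the genes of the node's main cell classes, 20 of 22 listed B cell genes and 21 of 26 listed T cell genes were tested. A probe set with 1 symbol existed for 20 and 23 of them. Of 23 listed pancreas genes 16 had such a probe set and 5 were bright enough to be tested. For the 23 listed intestine genes these counts were 21 and 6. Of the tested pancreas and intestine genes 0 were called late against early. In bulk RNA, fewer cells of a type and less RNA per cell cannot be told apart. Day 3 replicate 3 stood apart from the other early nodes in several sums of small housekeeping transcripts, and results that rest on these are given with that array named.

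On array A 1880 of 12231 tested probe sets differed between late and early nodes, 15.4% of those tested, and on array B 208 of 12516, or 1.66%. On array A 609 were higher (4.98% of those tested) and 1271 lower (10.4%), so 67.6% of the calls were lower. On array B 30 were higher (0.24%) and 178 lower (1.42%). When all arrays were brought to a common median, 268 were higher and 1648 lower on array A (86% lower), so the split between rises and falls there depended on the scaling. It turned with array weights (2205 higher, 1909 lower, 46.4% lower) and without 3 arrays of low weight, day 3 replicate 3, day 27 replicate 2 and day 35 replicate 3 (1791 higher, 1420 lower, 44.2% lower). Leaving out single arrays gave between 264 higher (without day 27 replicate 3) and 1130 higher (without day 27 replicate 2) on array A, with 278 without day 35 replicate 2 and 392 without day 2 replicate 3. The median log2 change over all tested probe sets was 0.02 on array A, and -0.01 after that scaling. The changes were small. The median size of a called change was 0.23 log2 units on array A and 0.32 on array B, 71 and 31 calls reached 0.5, and 1 call, on array B, reached 1. The calls were made on the mean of the 2 late days, so a shared direction of both days was largely built in. It held for 1877 of the 1880 calls on array A and all 208 on array B. Day 35 contributed more of them than day 27. Taken alone against the early nodes, day 27 gave 649 calls on array A (5.31%) and 2 on array B (0.016%), and day 35 gave 1546 (12.6%) and 267 (2.13%). Of the calls of the whole comparison, 527 and 2 were made on both days. Day 35 minus day 27 itself gave 0 calls on either array in limma (0%), with 815 and 354 probe sets at an unadjusted p under 0.05. The early side was not uniform either. Against day 3 alone late nodes gave 31 calls on array A (0.253%) and 2 on array B (0.016%), and against days 1 and 2 they gave 2159 (17.7%) and 235 (1.88%). Levels against PBS are given beside each gene. Late minus PBS gave 1020 calls on array A (8.34%) and 389 on array B (3.11%), and early minus PBS gave 19 (0.155%) and 4 (0.032%).

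Some genes that differed from PBS within days were closer to it after weeks. Mfge8, which marks apoptotic cells for phagocytosis and is made by follicular dendritic cells, gave the largest rise on array A (chromosome 7). Its intensity was 2116.5, 1834 and 2832 at day 27 and 3122, 3669 and 3271 at day 35, against 2279, 2183 and 2223 at day 1, 1559, 1530 and 1554 at day 2 and 1320, 1369 and 1452 at day 3. PBS nodes read 3372, 3621 and 3354. All 3 day 35 nodes lay above every early node and within or near the range of PBS nodes, while day 27 nodes overlapped those of day 1. The late minus early change was 0.70 (SE 0.07, adjusted p = 5.75e-06), composed of 0.40 for day 27 and 0.99 for day 35. Against PBS the late mean stood at -0.34 and the early mean at -1.04, both called (adjusted p = 0.031 and 6.25e-06). The early nodes enter both the late minus early and the early minus PBS change, so the opposite signs of these changes are not separate results.

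**Figure D1:**
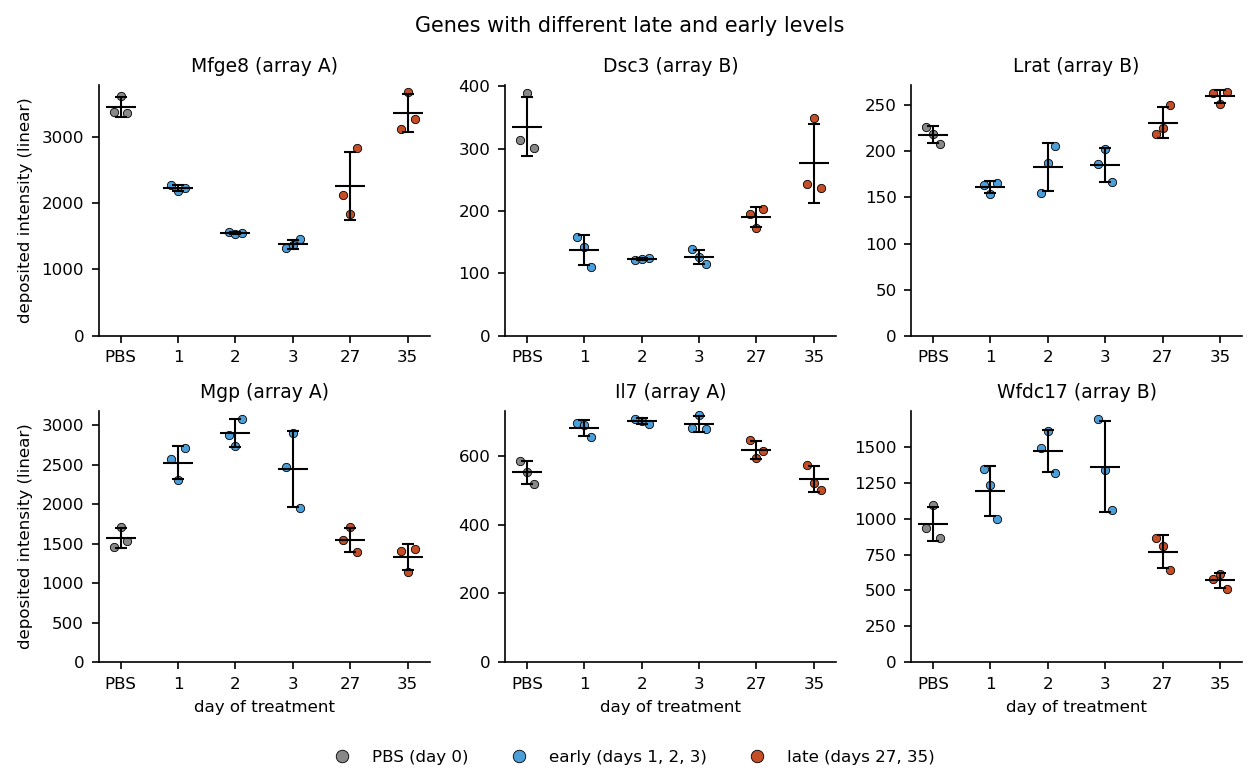
Deposited intensity of 6 genes in each node, by day of treatment with PBS nodes at the left. Points are single arrays, bars the mean ± SD of 3, and the vertical axes start at 0. Late nodes lie above early nodes for Mfge8 (at day 35), Dsc3 and Lrat and below them for Mgp, Il7 and Wfdc17.

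Dsc3, a desmosomal cadherin (chromosome 18), had late nodes above all early nodes on both arrays. On array B its intensity was 173 to 350 with a median of 221 in late nodes, against 111 to 158 with a median of 125 in early nodes and 301 to 389 in PBS nodes. The change was 0.83 (SE 0.09, adjusted p = 0.000166) on array B and 0.495 (SE 0.06, adjusted p = 4.43e-05) on array A. Late nodes stayed lower than PBS on array B (-0.55, adjusted p = 0.024), whereas the array A probe set stood at -0.10 (adjusted p = 0.48). Of the 6 tested desmosome genes, each taken by its brightest probe set, Dsc3 was the 1 that passed (16.7%). The share was 9.29% over all genes and 15.4% over the probe sets of array A. A less bright probe set of Dsg2, another desmosome gene, was called at 0.27 (adjusted p = 0.0096). The other Dsg2 probe sets, at 0.19 and 0.18, did not pass (adjusted p = 0.070 and 0.16). Lrat, which esterifies retinol and is found in stromal cells of the node, read 219 to 264 (median 250) in late nodes, 154 to 206 (median 167) in early nodes and 208 to 227 in PBS nodes. Its late and early nodes did not overlap, and the change was 0.48 (SE 0.06, adjusted p = 0.00057), while early minus PBS, at -0.31, did not pass (adjusted p = 0.27). Serpina10, an inhibitor of coagulation proteases, read 360 to 489 (median 383) late, 271 to 340 (median 316) early and 426 to 479 in PBS nodes, a change of 0.37 (SE 0.06, adjusted p = 0.000538) without overlap.

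Over the follicular dendritic cell list 3 of 10 tested genes were higher late and 1 lower, or 40% called. Among all 12395 genes taken with 1 probe set each 9.29% were called (3.09% higher, 6.2% lower). Of these genes 7801 were on array A, where 15.4% of probe sets were called (4.98% higher, 10.4% lower), against 1.66% on array B. Most list members were on array A, so both 9.29% and 15.4% serve as background for the lists. The median change of the follicular dendritic cell list was 0.05, beside 0.01 over all genes. The fall was that of the chemokine gene Cxcl13, described with the genes that stayed low. After Mfge8 and Lrat, the remaining rise was that of Clu, a secreted chaperone abundant in these cells, at 0.18 (adjusted p = 0.0185). Its late nodes at 3581 to 5127 overlapped the early nodes at 3465 to 4324, and the call ended without day 27 replicate 3 (adjusted p = 0.061) or day 35 replicate 2 (0.063). Other Clu probe sets stood at 0.16 and 0.15, both called, and at 0.12, not called (adjusted p = 0.044, 0.049 and 0.17). The complement receptor Cr2, with which these cells and B cells hold antigen, stood at 0.17 (SE 0.06, adjusted p = 0.069), and the adhesion molecules Vcam1 and Icam1 at 0.07 and 0.00 did not pass.

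Mgp and Il7 were higher than PBS within days and lower again after weeks. Mgp, a matrix protein that inhibits calcification (chromosome 6), had the largest fall on array A among genes whose late and early nodes did not overlap. It read 1544, 1708 and 1401 at day 27 and 1412, 1141 and 1438 at day 35, against 2575, 2303 and 2708 at day 1, 2884, 2739 and 3086 at day 2 and 2472, 2909 and 1948 at day 3, while PBS nodes read 1463, 1708 and 1539. Every late node lay below every early node and near PBS, and the lowest early node was day 3 replicate 3. The change was -0.86 (SE 0.08, adjusted p = 4.64e-06), and against PBS it stood at -0.13 late (adjusted p = 0.47) and 0.73 early (adjusted p = 0.0016). Il7, the survival cytokine that fibroblastic reticular cells supply to T cells, read 500 to 645 (median 584) in late nodes, 655 to 719 (median 693) in early nodes and 519 to 585 in PBS nodes. It fell by 0.27 (SE 0.04, adjusted p = 0.000331) late against early, its groups did not overlap, and over PBS it stood at 0.05 late (adjusted p = 0.60) and 0.33 early (adjusted p = 0.0094). It was the 1 of 12 tested fibroblastic reticular cell genes that passed (8.33%, beside 9.29% of all genes and 15.4% of array A probe sets). Without the 3 arrays of low weight 3 genes of that list were higher and 1 lower. Wfdc17, a secreted protein of activated macrophages, gave the largest change on array B, -1.01 (SE 0.10, adjusted p = 6.86e-05). It read 511 to 862 (median 629) late, 1000 to 1691 (median 1336) early and 862 to 1094 in PBS nodes, and late nodes were also lower than PBS (-0.54, adjusted p = 0.037). Its early minus PBS value of 0.46 did not pass (adjusted p = 0.31).

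Further genes were lower than PBS in early nodes and stayed so in late ones. Glycam1, a mucin of high endothelial venules that L-selectin binds, read 2132, 2038 and 2530 at day 27 and 2974, 3865 and 3650 at day 35, against 4820, 4354 and 4682 at day 1, 2759, 2740 and 2565 at day 2 and 1640, 2244 and 1980 at day 3. PBS nodes read 5239 to 6627, above every treated node. Late and early means differed by -0.05 (SE 0.08, adjusted p = 0.69), while each lay about 1 log2 unit under PBS (-1.06 late, adjusted p = 1.05e-05, and -1.002 early, adjusted p = 2.07e-05). The days differed on both sides. Day 27 was lower than the early mean (-0.38, adjusted p = 0.026), and day 35 stood at 0.27 (adjusted p = 0.073), with day 35 minus day 27 at 0.64 (adjusted p = 0.082). Madcam1, the vascular addressin that binds the gut-homing integrin, read 444 to 558 (median 460) late, 372 to 631 (median 468) early and 632 to 826 in PBS nodes, a late minus early change of -0.05 (SE 0.07, adjusted p = 0.68).

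**Figure D2:**
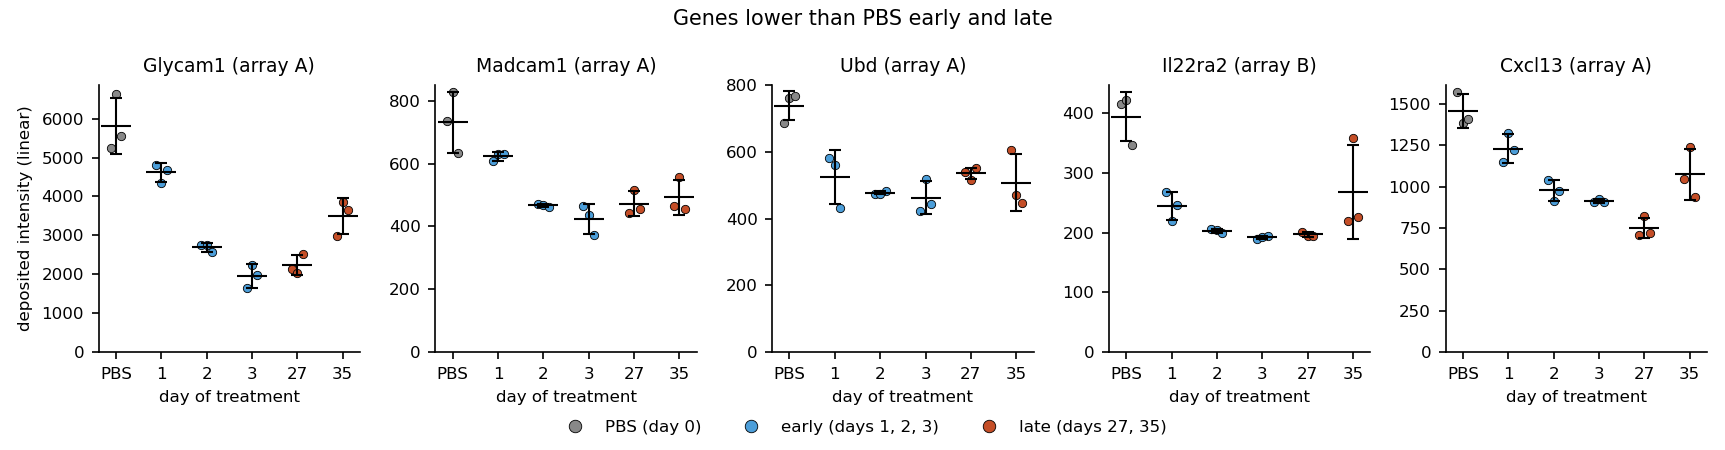
Deposited intensity of 5 genes in each node, by day of treatment with PBS nodes at the left. Points are single arrays, bars the mean ± SD of 3, and the vertical axes start at 0. Late and early nodes overlap for all 5 genes. The highest late Il22ra2 value, 359, is a single day 35 node.

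Ubd, a ubiquitin-like modifier, and Il22ra2, a secreted receptor that captures interleukin 22, also overlapped between late and early nodes. Ubd read 446 to 606 (median 528) late, 424 to 582 (median 476) early and 688 to 768 in PBS nodes, and its late minus early change of 0.10 (SE 0.07, adjusted p = 0.42) did not pass. Il22ra2 read 195 to 359 (median 211) late, 190 to 268 (median 204) early and 347 to 421 in PBS nodes, with a change of 0.10 (SE 0.09, adjusted p = 0.68). Late minus PBS was -0.51 for Ubd (adjusted p = 0.0036) and -0.79 for Il22ra2 (adjusted p = 0.0012). Cxcl13, the chemokine that draws B cells into follicles, was called lower late. It read 711, 822 and 720 at day 27 and 1046, 1243 and 939 at day 35, against 1148 to 1324 at day 1, 916 to 1043 at day 2 and 907 to 925 at day 3, with PBS nodes at 1388 to 1574. The change of -0.20 (SE 0.06, adjusted p = 0.029) came from day 27 (-0.46, adjusted p = 0.0022), as day 35 stood at 0.05 (adjusted p = 0.72), and a second probe set gave -0.22 (adjusted p = 0.037). Leaving out any 1 of 6 arrays ended that call (adjusted p up to 0.078), namely day 1 replicate 2, day 2 replicate 1, day 27 replicates 1 and 3 and day 35 replicates 1 and 3.

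Over the high endothelial venule list 1 of 11 tested genes passed (9.09%, beside 9.29% of all genes). This was Parm1, a mucin-like membrane protein, at 0.26 (SE 0.07, adjusted p = 0.014). Its late nodes at 585 to 819 overlapped early nodes at 497 to 655, and its other probe set stood at -0.03. The venular receptor Ackr1 stood at -0.01 and the fucosyltransferase Fut7 at 0.00. Of the receptor's own pathway 0 of 22 tested genes were called late against early, and the median was 0.03. Ltbr, the receptor gene, stood at -0.08 (SE 0.08). The genes of the ligand, Ltb and Lta, stood at -0.17 and -0.05 (SE 0.07 each). Relb and Nfkb2, which carry the signal to the nucleus, stood at -0.03 and -0.08 (SE 0.06 each). Without the 3 arrays of low weight 5 genes of this list were higher and 1 lower.

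Upstream sequence is shown for genes of both patterns, since NF-kB is the route through which the receptor acts. They were chosen after their values were seen. A single form of the kappa B motif (GGG, any 2 bases, then TTTCC) was searched, and no other form. The search covered both strands in the 250 bases before the start of each gene in a RefSeq table of promoter windows (GRCm38.p6). Of 32851 windows 464 held this form, or 1.41%. Among the genes that stayed low, Madcam1 had 2 matches, with first bases 83 and 70 before the start, and Ubd had 1 match, 15 before it, while the windows of Glycam1 and Cxcl13 had 0. Among the genes that were higher late the windows of Mfge8 and Lrat had 0. Il22ra2, Mgp, Il7 and Serpina10 were not matched in the table. The last 100 bases before each start are given 5′ to 3′ on the gene's strand, with matches in capitals. A match is a string of letters and not a measured binding site.
Madcam1 (chr10:79664459-79664558, + strand): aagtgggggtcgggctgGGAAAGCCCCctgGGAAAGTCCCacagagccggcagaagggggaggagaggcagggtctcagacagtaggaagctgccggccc
Ubd (chr17:37193792-37193891, + strand): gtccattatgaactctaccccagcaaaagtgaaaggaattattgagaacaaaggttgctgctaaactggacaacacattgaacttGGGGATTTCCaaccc
Mfge8 (chr7:79149061-79149160, - strand): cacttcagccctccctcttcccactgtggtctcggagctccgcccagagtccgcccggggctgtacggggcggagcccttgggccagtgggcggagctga
Lrat (chr3:82903975-82904074, - strand): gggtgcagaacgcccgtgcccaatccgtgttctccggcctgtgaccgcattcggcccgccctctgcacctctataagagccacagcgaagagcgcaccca

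Calls in which the 6 late and 9 early nodes of an array did not overlap numbered 245 on array A, 49 higher and 196 lower, and 36 on array B, 12 higher and 24 lower. Among all tested probe sets, called or not, 2.03% (array A) and 0.431% (array B) were without overlap. Among the 14 largest such rises of named genes on array A, the change ran from 0.24 to 0.495. After Dsc3, Cutc and Serpina10 came Cbll1, an E3 ubiquitin ligase (0.36, late 279 to 322 and early 203 to 266, second probe set 0.03), and the signalling adaptor gene Cables1 (0.29). Acsl4, which activates arachidonic acid (0.28), the endosomal sorting nexin Snx16 (0.28, array B probe set 0.06), Snrnp48 of the minor spliceosome (0.255, second probe set 0.11) and Rfx5, a transcription factor of class II genes (0.24), followed. Unlike Dsc3 and Serpina10, these genes had early levels near PBS, with early minus PBS between -0.09 for Cables1 and 0.05 for Snrnp48. Cutc read 766 in day 35 replicate 3, 292 to 327 in the other late nodes and 256 to 283 in early nodes. Its change of 0.41 (SE 0.13, adjusted p = 0.043) was 0.20 (adjusted p = 0.011) without day 35 replicate 3, and it no longer passed when any 1 of the early or day 27 arrays was left out (adjusted p from 0.055 to 0.088).

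**Figure D3:**
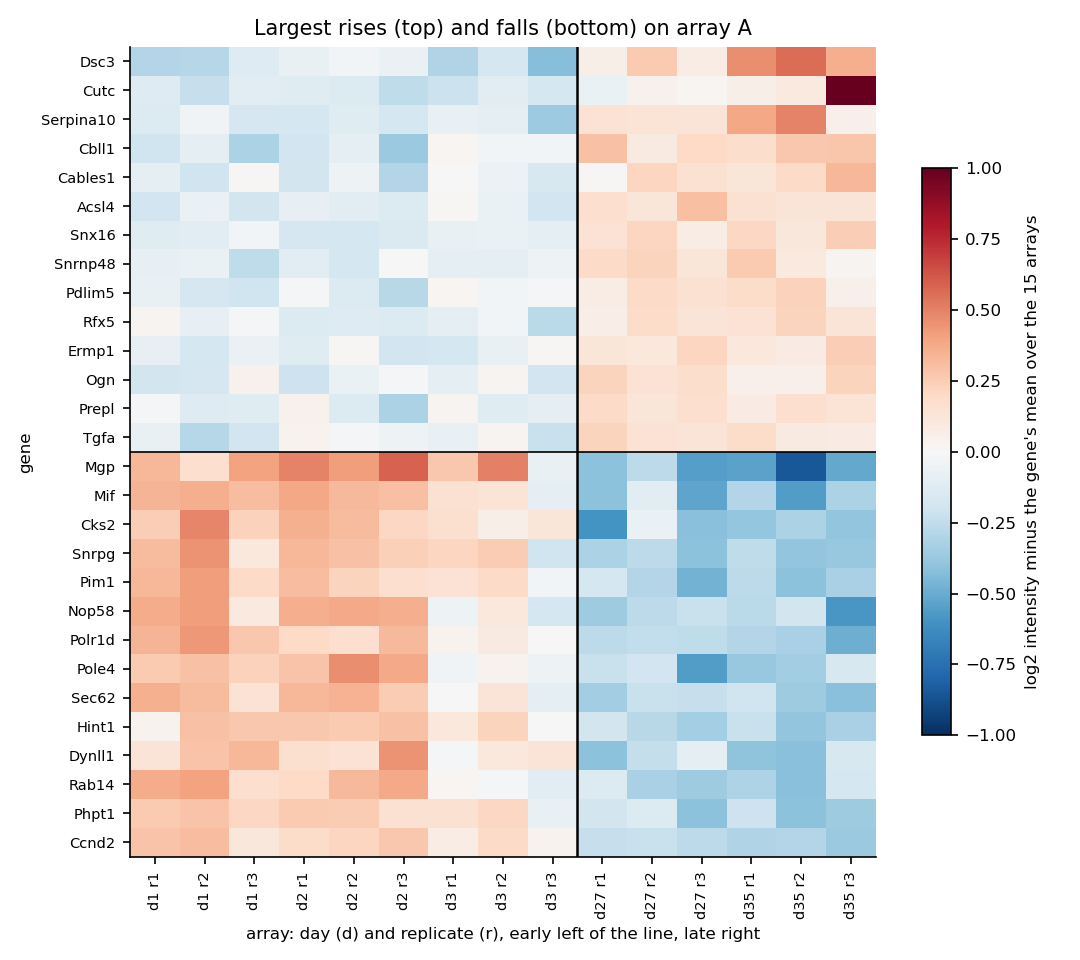
Log2 intensity of the 14 largest rises (top) and 14 largest falls (bottom) of named genes on array A, each centred on its mean over the 15 arrays. Columns are arrays in order of day and replicate, with early nodes left of the black line and late nodes right of it. Cutc is high in 1 late array, and day 3 replicate 3 is lower than the other early arrays in most of the falls.

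Further genes were lower late without overlap between late and early nodes. Mif, a secreted cytokine and tautomerase, read 1076 to 1470 (median 1237) in late nodes, against 1494 to 2074 (median 1961) in early nodes and 1766 to 1835 in PBS nodes. It fell by 0.61 (SE 0.06, adjusted p = 5.75e-06), while 2 probe sets on array B, at 0.17 and 0.06, did not pass. Cks2, which binds cyclin-dependent kinases, read 233 to 338 late, 369 to 497 early and 405 to 479 in PBS nodes, and fell by 0.61 (SE 0.07, adjusted p = 2.06e-05), with a second probe set at -0.47. The kinase gene Pim1 read 449 to 551 late, 609 to 832 early and 628 to 633 in PBS nodes (-0.54, SE 0.05). The cyclin gene Ccnd2 read 711 to 785 late, 940 to 1136 early and 898 to 1006 in PBS nodes (-0.47, SE 0.04). Its 5 other probe sets lay between -0.45 and -0.19, and 4 of them were called. Polr1d, a subunit of RNA polymerases I and III, fell by 0.52 on array A and by 0.38 on array B, and its 2 other probe sets, at -0.16 and -0.26, did not pass. Nop58, of the ribosomal RNA methylation complex, fell by 0.52, and the DNA polymerase subunit Pole4 by 0.52, with its second probe set at 0.00. In contrast to Mgp, early levels of Mif, Cks2, Polr1d, Nop58 and Pole4 lay near PBS (early minus PBS between -0.10 and 0.07), and late levels were lower than PBS for each of these 5 genes (late minus PBS between -0.70 and -0.52).

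Of 28 tested cell cycle genes 5 were lower late and 0 higher (17.9%), with a median of -0.05. The share was 9.29% over all genes, and 15.4% over the probe sets of array A, which held 26 of the 28. The count was 2 lower without day 27 replicate 1 and 3 lower without day 1 replicate 2, day 2 replicate 1, day 27 replicate 3 or day 35 replicate 1, and lay between 4 and 5 in the other omissions. Pcna, the clamp of replicating DNA, read 1357 to 1717 late, 1830 to 2093 early and 1780 to 2029 in PBS nodes, without overlap (-0.32, SE 0.05, adjusted p = 0.000584). The helicase subunit Mcm7 fell by 0.24 (adjusted p = 0.014), with 3 other probe sets at -0.12 to 0.01. Of 29 nucleolar genes 8 were lower (27.6%), among them the histone chaperone Npm1 (-0.26, adjusted p = 0.000739, second probe set -0.13). Of 24 heat shock and chaperone genes 5 were lower (20.8%), among them Fkbp4 (-0.37, other probe sets 0.02 and 0.16) and the chaperonin Hspe1 (-0.26).

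Genes of small housekeeping proteins made the broadest pattern. Over all genes 9.29% were called (6.2% lower), and over array A probe sets 15.4% (10.4% lower). Of 51 tested subunits of the respiratory chain listed as small, 45 were lower late and 0 higher (88.2%), with a median of -0.37 and a range from -0.63 for Ndufa6 to 0.09 for Uqcr10. Day 27 alone gave 27 lower (4.48% of array A probe sets were lower then) and day 35 alone 44 (9.2%). Against day 3 alone, whose replicate 3 lay among the late nodes in this list, 1 was lower and the median was -0.25. Of array A probe sets 0.253% were called against day 3 alone. Cox5a, a subunit of cytochrome oxidase, read 1417 to 2007 (median 1772) late, 1760 to 2767 (median 2590) early and 2336 to 2516 in PBS nodes, a change of -0.50 (SE 0.06, adjusted p = 4.5e-05), with 2 other probe sets at -0.33 and -0.26. Of 38 tested large enzymes of the mitochondrion 3 were lower and 1 higher (10.5%), with a median of -0.04 (5 lower without day 27 replicate 1). That share lay between the 9.29% of all genes and the 15.4% of array A probe sets. Of 39 cytosolic ribosomal protein genes 22 were lower (56.4%) and of 69 mitochondrial ribosomal protein genes 26 (37.7%). Of 33 proteasome subunits 19 were lower (57.6%) and of 32 spliceosome genes 11 (34.4%). In each of these 4 lists 0 were higher in the main comparison. Their medians lay between -0.16 and -0.10. Without day 27 replicate 3 the mitochondrial ribosomal count was 17, and the proteasome count was 13 to 18 with 1 array left out. Without the 3 arrays of low weight 4 spliceosome genes were higher and 13 lower. In that setting 1 proteasome subunit was higher and 17 lower, and both ribosomal protein lists had 0 higher. Psma2, a subunit of the proteasome core, read 1067 to 1181 late, 1318 to 1544 early and 1311 to 1401 in PBS nodes, without overlap (-0.37, SE 0.04, adjusted p = 3.03e-05). Snrpf, a small spliceosomal Sm protein, showed the largest list member change, -0.96 on array B (SE 0.14), where late nodes read 424 to 857 and early nodes 564 to 1321.

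**Figure D4:**
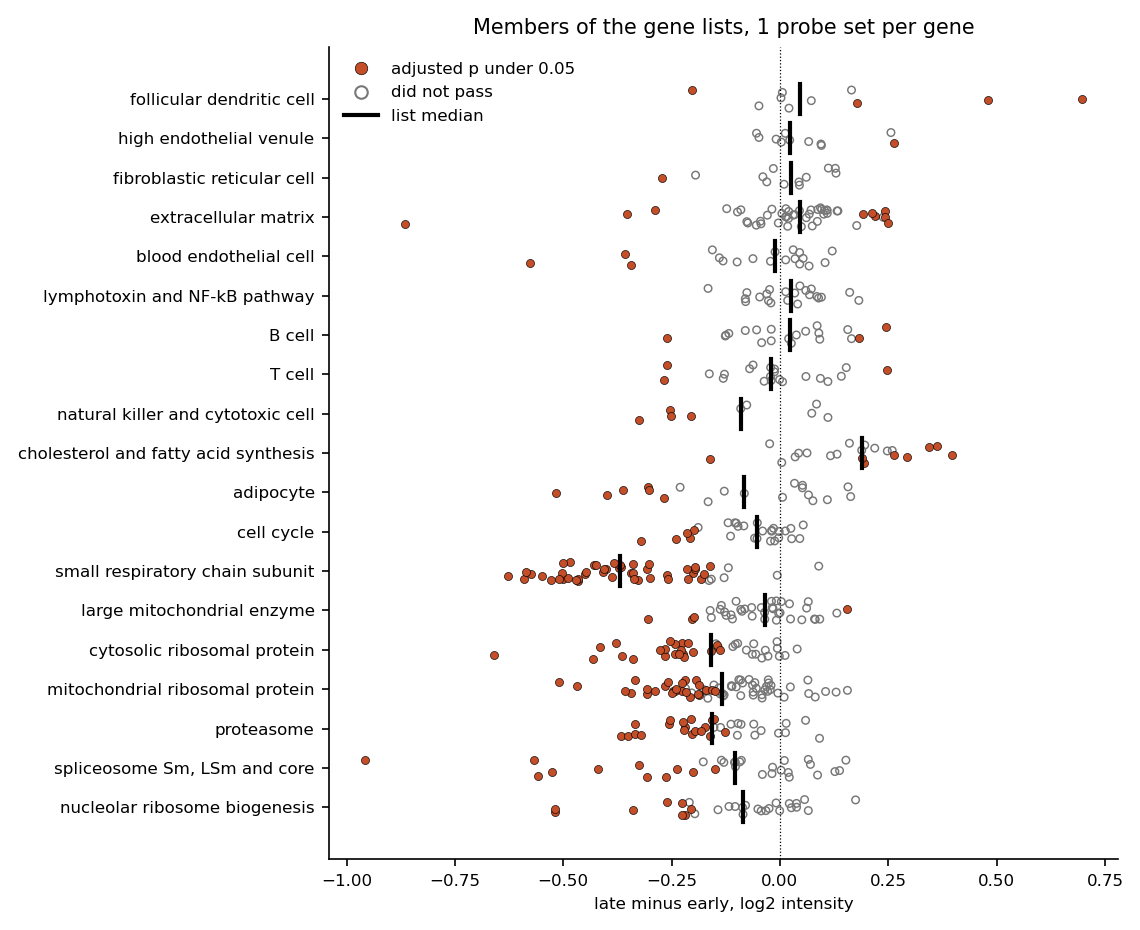
Late minus early log2 change of each tested member of 19 gene lists, with 1 probe set per gene. Filled points passed an adjusted p of 0.05 and black bars are list medians. The small respiratory chain list lies mostly left of 0 with 45 of 51 filled, while the large mitochondrial enzymes, with 4 of 38 filled, centre near 0.

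The level of these small transcripts differed among arrays of 1 group and so did ratios of control probe sets. The mean centred log2 intensity of the small respiratory chain subunits on array A was -0.42 to -0.03 in late nodes (median -0.25), -0.23 to 0.20 in early nodes (median 0.14) and 0.11 to 0.15 in PBS nodes. The early value of -0.23 was that of day 3 replicate 3, which lay among the late nodes. The ratio of the 3′ to the 5′ control probe set of a transcript rises when RNA or its copies are less complete. On array A the log2 ratio for beta actin was 0.08 to 0.19 in late nodes, -0.07 to 0.13 in early nodes and -0.03 to 0.06 in PBS nodes, a late minus early difference of 0.12 (two-sided exact permutation test, p = 0.0008, adjusted p = 0.004 over 8 ratios). For pyruvate carboxylase it was 0.74 to 0.95 late, 0.34 to 0.73 early and 0.49 to 0.62 in PBS nodes (difference 0.22, exact permutation p = 0.001, adjusted p = 0.004). For beta actin on array B the difference was 0.17 (exact permutation, adjusted p = 0.0059), and the other 5 ratios, among them both of Gapdh, did not pass. With the beta actin ratio as a covariate, a choice made after seeing the data, 58 calls were made on array A (2 higher, 56 lower) and 0 on array B. With the small subunit mean as a covariate 401 were made on array A and 0 on array B. The array B fit used the mean measured on array A, matched by day and replicate number. Under the actin covariate the median of the small subunit list was -0.37 with 0 of 51 called. Both covariates differ between late and early arrays, and their part in the results was not tested.

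**Figure D5:**
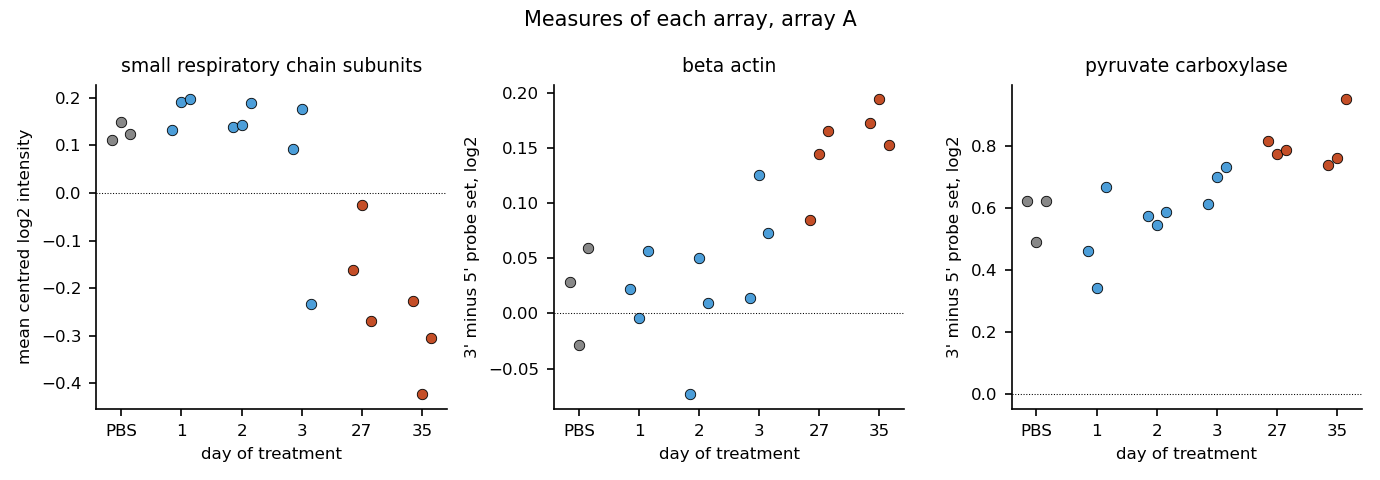
Mean centred log2 intensity of the small respiratory chain subunits (left) and log2 ratio of the 3′ to the 5′ control probe set of beta actin (middle) and pyruvate carboxylase (right) in each node on array A, by day with PBS nodes at the left. Each point is 1 array. Late nodes are low at the left and high in the other panels, and the early node at -0.23 is day 3 replicate 3.

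Of the 114 named probe sets called late against early, 15 stayed called under the actin covariate and 17 under the small subunit covariate. Those that passed under both were Mgp, Cks2, Polr1d, Sec62, Dynll1, Ccnd2 and Psma4. For Sec62 this was a probe set with a late minus early change of -0.50. A brighter Sec62 probe set, at 0.05, and another on array B, at 0.01, were not called in the main comparison. Mfge8 stood at 0.64 (adjusted p = 0.039) under the actin covariate and at 0.41 (0.055) under the small subunit covariate. Dsc3 on array A stood at 0.38 (0.13) and 0.65 (0.016), and Il7 at -0.25 (0.19) and -0.24 (0.10). Against day 3 alone 14 of the 114 passed, among them Dsc3 on both arrays, Mfge8 (0.98, adjusted p = 3.68e-05), Mgp (-0.75, 0.0049), Mif, Cks2, Pim1, Ccnd2 and Wfdc17 (-1.02, 0.0073).

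Matrix genes were called in both directions, with 6 of 48 tested genes higher and 3 lower (18.8%) and a median of 0.05. All 48 were on array A, where 15.4% of probe sets were called. The falls were Mgp and the insulin-like growth factor binding proteins Igfbp7 (late 3202 to 3677, early 3603 to 4900, -0.35, SE 0.05, second probe set -0.10) and Igfbp4 (-0.29, with 5 other probe sets between -0.69 and -0.28, all called). The rises, of which Ogn was named by rule and the others after their values were seen, were Mfap5 (0.25), Tnc (0.24), Ogn (0.24), Col5a2 (0.22), Lamc1 (0.21) and Col6a3 (0.19). Tnc encodes tenascin C and Lamc1 a laminin chain of basement membranes. Over PBS, Tnc stood at 0.55 late and 0.31 early, and Col5a2 at 0.45 late and 0.24 early.

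Of 19 tested blood endothelial genes 3 were lower and 0 higher (15.8%). The share was 9.29% over all genes, and 15.4% over the probe sets of array A, which held 17 of the 19. Cd300lg, also called nepmucin, a vessel wall mucin, read 181 to 271 (median 214) late, 215 to 409 (median 332) early and 364 to 458 in PBS nodes, a change of -0.58 (SE 0.07, adjusted p = 0.000474). The early nodes covered days 1 and 2 at means of 342 and 388 and day 3 at 259, and against day 3 alone the change of -0.24 did not pass (adjusted p = 0.78). Tie1, an endothelial receptor kinase, fell by 0.34 (SE 0.05, adjusted p = 0.00026) and Ramp2, part of the adrenomedullin receptor, by 0.36 (adjusted p = 0.0039). Ramp2 turned to 0.07 with the small subunit mean as a covariate. The pan-endothelial genes Pecam1, Cdh5 and Cldn5 stood at -0.02, 0.12 and -0.01 and did not pass.

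B and T cell lists had called members in both directions. The shares called were 15% and 14.3%, beside 9.29% of all genes and 15.4% of array A probe sets. The B cell receptor component Cd79a was lower (late 2405 to 2785, early 2629 to 3772, -0.26, SE 0.05, adjusted p = 0.000816). Higher were the transcription factor Ebf1 (0.25, array B probe set -0.16) and the inhibitory receptor Cd22 (0.18, second probe set 0.08). In all 3 of 20 B cell genes were called (15%). The calls of Ebf1 and Cd22 each ended without day 27 replicate 3 (adjusted p = 0.073 and 0.080) or day 35 replicate 2 (0.066 and 0.064), and their changes turned to -0.05 and -0.07 with the small subunit covariate. Among 21 T cell genes the receptor chain Cd3d (-0.27) and the adaptor Lat (-0.26) were lower. The receptor for interleukin 7, Il7r, was called higher at 0.25 (adjusted p = 0.0185), though not without day 27 replicate 3 (0.062) or day 35 replicate 2 (0.055), and it turned to -0.09 with the small subunit covariate. Of 9 natural killer and cytotoxic genes 4 were lower and 0 higher (44.4%), with Nkg7 at 621 to 795 late and 775 to 903 early (-0.25, SE 0.05, adjusted p = 0.0027), the granule protease Gzma at -0.25, the chemokine Ccl5 at -0.32 and Ctsw at -0.21. Ccl5 turned to 0.04 with the small subunit covariate. Of 18 plasma cell genes 1 was higher and 2 lower (16.7%, beside 15.4% of array A probe sets). Igha, the heavy chain of immunoglobulin A, read 8842 to 10231 (median 9439) in late nodes, 6247 to 9734 (median 7079) in early nodes and 6056 to 7170 in PBS nodes. It rose by 0.37 (SE 0.06, adjusted p = 0.000538), and its 2 other probe sets by 0.32 each. The highest early node was day 3 replicate 3, and the other early nodes lay below every late node. Mzb1, an endoplasmic reticulum protein of immunoglobulin assembly, read 995 to 1553 late and 1364 to 2368 early on array B (-0.52, SE 0.12, adjusted p = 0.036). That call ended when any 1 of 9 arrays was left out (adjusted p up to 0.128), namely day 1 replicate 2, day 2 replicates 1 and 2, day 3 replicates 1 and 3, day 27 replicates 2 and 3 and day 35 replicates 1 and 3. Ssr4, of the endoplasmic reticulum translocon, fell by 0.35 on its brightest probe set, while its 2 others stood at 0.13 and 0.05.

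Of 26 macrophage genes 4 were lower and 0 higher (15.4%, beside 9.29% of all genes and 15.4% of array A probe sets). These were the lysosomal marker Cd68 (-0.32), the complement subunit C1qc (-0.24), the lipid carrier Apoe (-0.19) and the endotoxin co-receptor Cd14 (-0.16). The call of Apoe ended without day 35 replicate 3 (adjusted p = 0.051). Without day 35 replicate 1 the count was 7 lower and without day 35 replicate 3 it was 2. Without the 3 arrays of low weight 5 of the 26 were higher and 3 lower. Of 16 dendritic cell genes 1 was higher and 2 lower (18.8%, beside 15.4% of array A probe sets). Cst3, a protease inhibitor abundant in dendritic cells, fell by 0.35 (SE 0.05, adjusted p = 0.000128). Siglech, a lectin of plasmacytoid dendritic cells, read 274 to 346 late and 300 to 437 early on array B (-0.28, SE 0.07, adjusted p = 0.0495), a call that ended when any 1 of 13 arrays was left out (highest adjusted p 0.13), all but day 2 replicate 1 and day 1 replicate 2. The endocytic receptor Ly75 was higher (late 227 to 315, early 201 to 300, 0.275, SE 0.08, adjusted p = 0.029). Its call ended when any 1 of 7 arrays was left out (adjusted p up to 0.101), namely day 2 replicates 1 and 3, day 3 replicates 1 and 2, day 27 replicate 3 and day 35 replicates 2 and 3, and it turned to -0.06 with the small subunit covariate. Of 28 interferon response genes 2 were lower, both inducible proteasome subunits, Psmb9 (late 1050 to 1240, early 1320 to 1562, -0.35) and Psmb8 (-0.24), and 0 were higher, a share of 7.14% beside 9.29% of all genes. Without day 1 replicate 3 or day 35 replicate 1 the count was 4 lower.

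Genes of sterol and fatty acid synthesis were called more often higher than lower. Of 21 tested genes 7 were higher late and 1 lower (38.1%), with a median of 0.19. The share was 9.29% over all genes (3.09% higher) and 15.4% over array A probe sets (4.98% higher). Sqle, which epoxidises squalene, read 370 to 612 (median 460) late, 312 to 414 (median 354) early and 294 to 361 in PBS nodes (0.40, SE 0.09, adjusted p = 0.00535). Dhcr7, the last enzyme of cholesterol synthesis, read 378 to 479 late, 309 to 400 early and 332 to 359 in PBS nodes (0.29, SE 0.05, adjusted p = 0.00093). The desaturase Scd1 read 9786 to 11262 late and 8580 to 9902 early (0.19, SE 0.04, adjusted p = 0.0039). Its second probe set, at 0.08, did not pass (adjusted p = 0.57). Higher as well were Scd2 (0.36), Acly (0.34), Idi1 (0.26) and Msmo1 (0.19), whereas the regulator Srebf2 was lower (-0.16), all 5 named after their values were seen. The count was 3 higher without day 27 replicate 1, 4 without day 1 replicate 2, day 2 replicate 3 or day 3 replicate 1, and 11 without day 27 replicate 2, and under the 2 covariates 0 were called with medians of 0.15. Day 3 nodes were closer to late nodes than days 1 and 2 were, with means for Sqle of 318, 354 and 397 on days 1, 2 and 3.

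Of 19 tested fat cell genes 6 were lower late and 0 higher (31.6%), with a median of -0.08. The share was 9.29% over all genes (6.2% lower) and 15.4% over array A probe sets (10.4% lower). The count was 2 lower without day 35 replicate 2 and between 4 and 7 in the other omissions. Day 27 alone gave 0 and a median of 0.09 (4.48% of all tested probe sets on array A were lower then), and day 35 alone gave 9 lower and a median of -0.20 (9.2% lower). Cidec, a lipid droplet protein, averaged 1181 at day 27 and 808 at day 35, against 1337, 1307 and 1212 on days 1, 2 and 3 (-0.40, SE 0.10, adjusted p = 0.012), and its day 35 minus day 27 difference of -0.57 did not pass (adjusted p = 0.40). Pparg, the regulator of fat cell identity, stood at -0.31 (adjusted p = 0.0042). The summed intensity of the list on array A was 33530 to 51610 in late nodes, 39690 to 48360 in early nodes and 45210 to 48990 in PBS nodes. The amount of fat left on each node was not recorded in the labels, and its part was not tested.

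Of 12 tested clock genes 3 were lower and 0 higher (25%, beside 9.29% of all genes and 15.4% of array A probe sets). These were Nr1d1 (late 348 to 577, early 472 to 687, -0.39, SE 0.07, adjusted p = 0.000465), Dbp (-0.32, adjusted p = 0.0051) and Per1 (-0.23, adjusted p = 0.026). The call of Per1 ended when any 1 of 6 arrays was left out (adjusted p up to 0.070), namely day 1 replicate 2, day 2 replicate 3, day 3 replicates 1 and 2, day 27 replicate 1 and day 35 replicate 1. The labels state no hour of dissection, and its part was not tested. The beta globin gene Hbb-b2, a marker of blood in the sample, read 117 to 304 late, 156 to 412 early and 322 to 548 in PBS nodes (-0.71, SE 0.19, adjusted p = 0.017), a call that ended without day 27 replicate 1 (0.055) or day 35 replicate 2 (0.064). It was the 1 of 8 red cell genes called (12.5%, beside 9.29% of all genes and 15.4% of array A probe sets).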

How the data were processed

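Each of 2 Affymetrix arrays was hybridised with total RNA from 18 mesenteric lymph node samples of mice. The values were used as deposited by the authors, 1 table per array, as linear intensity per probe set. Scaling and software are not named by the labels or files. Intensities were floored at each table's 20th percentile (122.6 on array A, 76.57 on array B) and turned into log2 values. Probe sets above the table median (286.7 and 157.9) on at least 3 of 18 arrays were tested, in 1 limma fit per array over all 6 groups (limma 3.58.1, R 4.3.3), with Benjamini-Hochberg adjustment per table and contrast and calls at 0.05. The scripts were tested on simulated data. The precision is limited by the number of arrays. Of 22626 and 22511 probe sets, 20380 and 14661 had 1 gene symbol, 691 and 245 had several and 1555 and 7605 had none. Genes in the 37 lists were represented by their brightest tested probe set, on array A where possible. Ccl19 and Ccl21a had none. Named were, by rule, the called genes of largest change without overlap between late and early arrays (14 in each direction on array A, 6 on array B), the 3 smallest p of each list with a call, and a fixed set. Other list members were named after their values were seen. The contrast, the lists and the named genes were chosen with earlier results of these data known. Promoter windows came from RefSeq (GRCm38.p6). Alternatives covered scaling, floor, filter, array weights, blocks, covariates, single days and single arrays left out.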

Additional observations from a re-analysis of the deposited data

Results flagged for a closer look

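The 3′ and 5′ control probe sets lie outside the gene measurements and differed between late and early arrays in 3 of 8 cases. The log2 ratio for beta actin was higher late by 0.12 on array A and by 0.17 on array B, and that for pyruvate carboxylase by 0.22 on array A (exact permutation tests, adjusted p = 0.004, 0.00586 and 0.004). For pyruvate carboxylase the late arrays (0.74 to 0.95) and early arrays (0.34 to 0.73) did not overlap. The other 5 ratios did not pass (exact permutation, adjusted p from 0.201 to 0.694).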

How the results depend on the processing

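The count of late minus early calls on array A, 1880, became 4114 with array weights and 3211 without day 3 replicate 3, day 27 replicate 2 and day 35 replicate 3, 649 for day 27 alone, 31 against day 3 alone, 401 with the small subunit mean and 58 with the beta actin ratio as covariate (the last chosen after seeing the data), and 0 at 2-fold or more. On array B the 208 calls became 505 with array weights, 134 without those 3 arrays, 772 with day as a random block, 2 for day 27 alone, 2 against day 3 alone, 0 under each covariate and 1 at 2-fold or more. With the replicate block the counts were 1922 on array A and 483 on array B. The numbers were not taken to pair the samples, since the correlation of deviations was not over 0.1 for every same-numbered pair on either array. It was for 13 of 30 such pairs on array A (median 0.0261) and 23 of 30 on array B (0.412), against 18 and 16 of 60 pairs with different numbers (0.00636 and -0.098), and 7 and 10 of 15 arrays correlated best with their own number, a hint from the data only. Day 35 minus day 27, with 0 calls, gave 4 on array A after quantile normalization, 464 with array weights, 1 with the replicate block and 6 without the 3 arrays, and 7 on array B without a filter. Leaving out single arrays gave 1292 to 2419 calls on array A, 102 to 276 on array B, and 0 to 6 (array A) and 0 (array B) for day 35 minus day 27. On array B the count fell most without day 35 replicate 1 (102), day 27 replicate 3 (120) and day 2 replicate 2 (138). With the small subunit covariate the sign turned for Ramp2 (0.0666), Ly75 (-0.0636), Ebf1 (-0.0497), Cd22 (-0.0652), Il7r (-0.0858), Ccl5 (0.0395), S1pr1 (-0.0119) and Mgll (0.126), and with day 35 alone for Cxcl13 (0.052). The cause of these shifts was not tested. Of 114 named calls 91 held in every omission of a single array, and 104 held without the 3 arrays.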
